A study of Mus musculus with 6 samples.

Results

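The 10 genes described here encode β-catenin (Ctnnb1), 4 components of the complex that destroys it (Apc, Axin1, Gsk3b and Csnk1a1), the Wnt co-receptor Lrp6, 3 TCF/LEF transcription factors (Lef1, Tcf7 and Tcf7l2) and the feedback inhibitor Nkd1. They were listed by symbol out of a table of 23420 genes, with no threshold on their values. Earlier results of these data were known when the genes were chosen. All 10 were in the table, and all 10 passed the filter on low counts, which kept 12653 genes. Transcripts were counted in LSK cells from the bone marrow of 6 mice, with 1 library per mouse. LSK cells are the marrow fraction that lacks lineage markers and carries Sca-1 and c-Kit, and it holds the blood-forming stem cells and early progenitors. The tested mice were 3 bcat(ex3)osb animals, called mutant mice here, whose osteoblasts had permanently active β-catenin signalling, and they were compared with 3 wild-type (WT) littermates. The sources used here do not state what drove recombination in osteoblasts, nor the strain, age or sex of the mice.

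Without a Wnt signal, the destruction complex holds β-catenin on the scaffolds Axin and Apc, where casein kinase 1α and then GSK3β phosphorylate it and mark it for degradation. When a Wnt protein binds a Frizzled receptor and Lrp6, the complex is inhibited, β-catenin accumulates and enters the nucleus, and there it binds TCF/LEF factors on their target genes. β-Catenin is thus controlled mainly as a protein, and its transcript level does not report its activity. Within blood formation, Tcf7 and Lef1 are best known for their roles in lymphocyte development.

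The genotype name refers to exon 3 of Ctnnb1, which holds the phosphorylation sites. In mice of this kind, recombination removes that exon in the chosen cell type, and the shortened β-catenin escapes degradation. The exon is shown because it is the piece of the pathway that the model alters. It is exon 3 of 15 in the first-numbered transcript of the gene in GENCODE M21, at chr9:120950522-120950749 on the plus strand of GRCm38, the assembly that mm10 also names. Its 228 bases are 6.29% of the transcript's 3623 bases, and its length is a multiple of 3, so that its loss keeps the reading frame of the 781-residue protein. Capitals mark codons 33, 37, 41 and 45, the targets of GSK3β and casein kinase 1α:
Ctnnb1 exon 3: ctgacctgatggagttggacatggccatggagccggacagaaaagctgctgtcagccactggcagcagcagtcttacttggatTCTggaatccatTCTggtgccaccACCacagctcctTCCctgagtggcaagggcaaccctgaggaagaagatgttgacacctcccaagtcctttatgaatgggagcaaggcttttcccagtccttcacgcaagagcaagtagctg
The deposited values are counts per gene, with no value per exon, so presence or loss of exon 3 in the LSK libraries was not analysed here. The altered cell is the osteoblast, and the RNA came from LSK cells, so the Ctnnb1 count is no check of the genotype.

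Totals lay between 17191996 and 18678599 counts in mutant mice and between 15431235 and 19956774 counts in WT mice. All 10 LSK markers had counts in every library. Of the 10, 9 had negative log2 fold changes of mutant over WT, with a median of -0.37, against 0.0022 over all tested genes. Kit had 490.0, 345 and 725 CPM (the usual per-million scale, here on library sizes scaled by TMM) in mutant mice 1, 2 and 3, against 1002, 323 and 720.1 CPM in WT mice 1, 2 and 3. Ly6a, which encodes Sca-1 and has close relatives in the genome, had 81.5, 65.9 and 75.7 CPM in mutant mice, against 148, 162 and 156 CPM in WT mice. For Ly6a the groups did not overlap, and the log2 fold change was -1.06 ± 0.18 (SE; edgeR adjusted p = 0.312; DESeq2 adjusted p = 1.3e-05). The 13 osteoblast and stromal markers summed to 252, 232 and 239 CPM in mutant mice, against 180, 156 and 195 CPM in WT mice, without overlap. Most of that sum was Runx2, with 113, 147 and 88.4 CPM in mutant mice, against 74.8, 108 and 84.7 CPM in WT mice, and Pdgfrb, with 122, 77.4 and 139 CPM in mutant mice, against 69.7, 33.7 and 78.4 CPM in WT mice. Of the 13, 6 were tested, 3 with positive and 3 with negative log2 fold changes. Without overlap, 0 of these were higher and 2 (Alpl and Col1a2) were lower, against 6.89% higher and 7.67% lower of all tested genes. Alpl had 4.79, 0.387 and 1.89 CPM in mutant mice, against 16.7, 5.92 and 21.8 CPM in WT mice. The markers of mature osteoblasts Bglap, Sp7 and Col1a1 were at or below 0.323 CPM in mutant mice and 0.824 CPM in WT mice, and the part of such cells in the results was not tested. On principal component 1, with 50.8% of the variance, the library of mutant mouse 2 lay far from the other 5. The median log2 level of the longest 25% of genes relative to the shortest 25% was 0.21, -0.86 and 0.29 in mutant mice, against 0.59, -0.50 and 0.29 in WT mice. Mouse 2 of each group was thus the lowest for long transcripts. Y-linked genes had 3715, 2841 and 12 counts in mutant mice 1, 2 and 3 and 8 to 13 counts in WT mice, so sex differed between the groups.

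None of the 10 genes passed the adjusted threshold of 0.05 in edgeR's quasi-likelihood test over all 12653 genes, where 0% of genes passed. At an unadjusted p under 0.05, edgeR gave 1 of the 10 higher and 2 lower in mutant mice, against 6.56% of all tested genes (3.43% higher and 3.13% lower). DESeq2 and limma-voom also gave 0 of the 10 at the adjusted threshold, and over all genes DESeq2 gave 0.798% higher and 0.537% lower. The 3 genes were Nkd1, which was higher, and Lef1 and Tcf7l2, which were lower. In these same 3 genes the values of the mutant and WT mice did not overlap, against 14.6% of all tested genes (6.89% higher and 7.67% lower). The 10 were listed with earlier results of these data known, so the shares are a description and not an independent test. The log2 fold change of mutant over WT was positive for 5 of the 10 and negative for 5, and its median over the 10 was -0.10, against 0.0022 over all tested genes. The log2 fold changes of 6 genes, Ctnnb1, Apc, Axin1, Gsk3b, Csnk1a1 and Lrp6, were smaller than 0.4 in size. The edgeR p-values set the difference between the groups against the spread between these 6 mice. In that fit the spread of each gene is drawn toward a trend over all tested genes. An exact permutation test of 3 against 3 cannot go below 0.1.

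**Figure D1:**
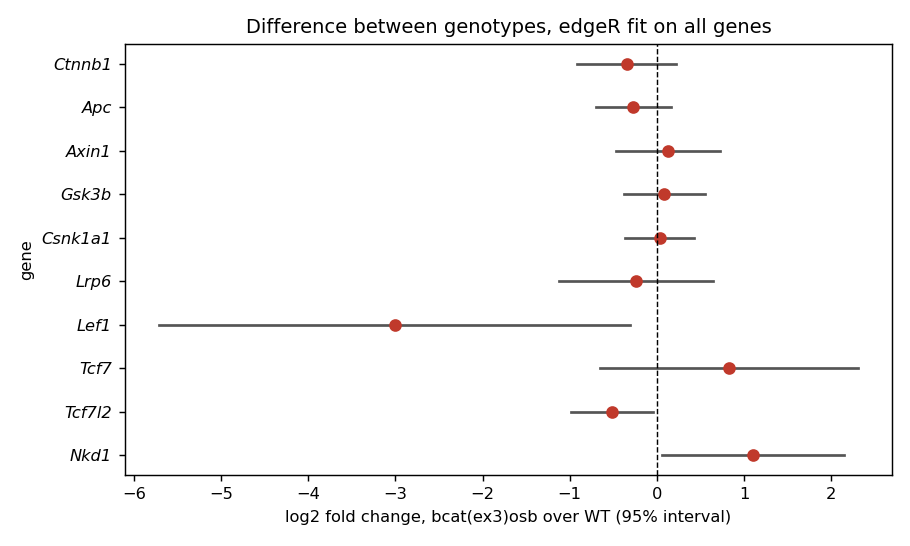
Log2 fold change of each of the 10 genes, mutant over WT, from the edgeR fit on all tested genes (horizontal axis, log2 units). Points are estimates and lines are 95% intervals. The intervals of Lef1, Tcf7l2 and Nkd1 leave out 0 before adjustment for the number of genes, and the interval of Lef1, from -5.71 to -0.30, is the widest.

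The levels of the 10 genes covered a wide range. On the deposited FPKM scale, which takes gene length into account, Csnk1a1 had the highest level, with a mean of 146.7 ± 14.8 FPKM over the 6 mice (SD). Ctnnb1 followed with 95.6 ± 27.6 FPKM and Axin1 with 36.1 ± 8.82 FPKM, and each of the 3 lay above the next in 6 of 6 mice. Another 6 genes had mean levels between 4.54 FPKM (Lrp6) and 9.55 FPKM (Lef1), in the order Lef1, Tcf7l2, Gsk3b, Tcf7, Apc and Lrp6. Neighbours in that order were not separated, since each lay above the next in only 2 to 4 of 6 mice. Nkd1 had the lowest level, at 0.612 ± 0.238 FPKM, and Lrp6 lay above it in 6 of 6 mice. The spread between mice also differed between genes: the highest CPM was 1.23 times the lowest for Csnk1a1, 1.80 times for Ctnnb1, 6.61 times for Tcf7 and 447 times for Lef1.

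**Figure D2:**
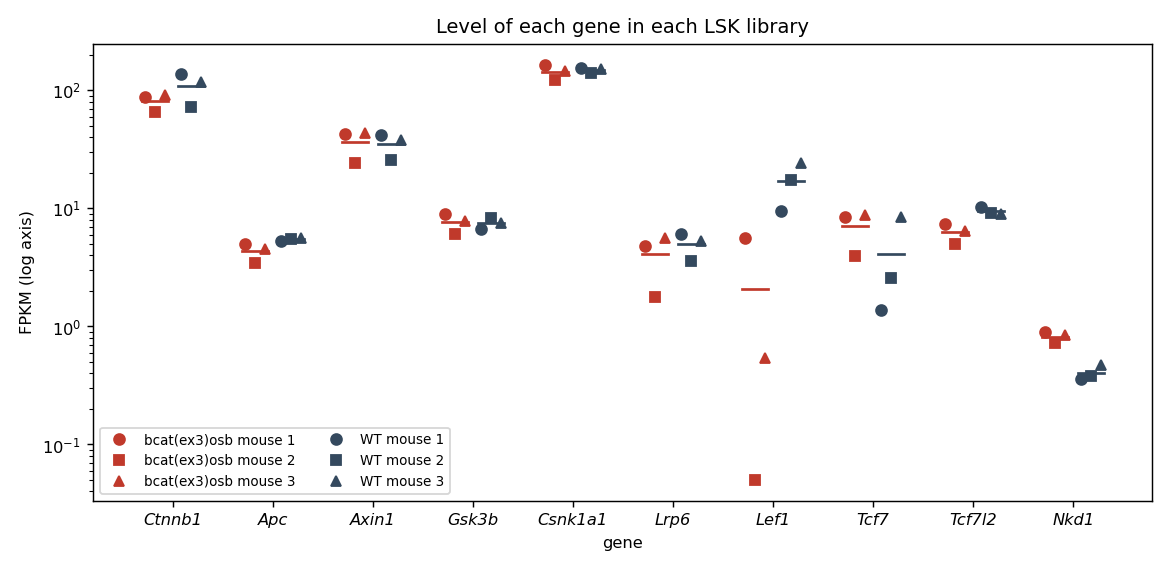
FPKM of each of the 10 genes (vertical axis, log scale) in every library, with mutant mice on the left of each pair and WT mice on the right. Points are mice, shapes are mouse numbers and lines are group means. Lef1 spans 0.05 to 5.58 FPKM in mutant mice and 9.55 to 24.2 FPKM in WT mice, while Csnk1a1 spans 122 to 165 FPKM in mutant mice and 139 to 155 FPKM in WT mice.

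Ctnnb1 (chromosome 9, 120933400 to 120960507, GRCm38.p6) encodes β-catenin, which serves both as the nuclear partner of TCF/LEF factors and as a component of cell junctions. Its level was 323, 264 and 321 CPM in mutant mice 1, 2 and 3, against 473, 263 and 416 CPM in WT mice 1, 2 and 3. Mouse 2 was the lowest in both groups at nearly the same level, and the groups overlapped. The means were 303 ± 33.5 CPM in mutant mice and 384 ± 109 CPM in WT mice (SD, 3 mice each), with a log2 fold change of -0.35 ± 0.25 (SE; 95% interval -0.91 to 0.22; edgeR adjusted p = 0.876). The transcript was deeply counted, with sums of 15875 counts over the mutant mice and 22365 counts over the WT mice. In GENCODE M21, exons of Ulk4, on the opposite strand, cover 14.6% of the 5192 exon bases of Ctnnb1. The deposited length of Ctnnb1 is 3623 bases, so the share in the counted exons may differ. The sources used here do not state whether the counting used strand. Ulk4 itself had 1.44 to 3.16 CPM in mutant mice and 1.70 to 2.86 CPM in WT mice.

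Neither scaffold of the destruction complex passed the test. Apc (chromosome 18, 34220297 to 34322190), the tumour suppressor that binds β-catenin and Axin, had 62.6, 47.7 and 55.1 CPM in mutant mice, against 62.2, 69.3 and 67.9 CPM in WT mice. The groups overlapped only through mutant mouse 1 and WT mouse 1, and its log2 fold change was -0.27 ± 0.19 (SE; 95% interval -0.70 to 0.16; edgeR adjusted p = 0.868). On the FPKM scale the same libraries gave 5.0, 3.46 and 4.53 FPKM in mutant mice and 5.27, 5.55 and 5.62 FPKM in WT mice, and there the groups did not overlap. Axin1 (chromosome 17, 26131217 to 26195811), the scaffold that brings the kinases to β-catenin, had 163, 101 and 161 CPM in mutant mice, against 151, 98.4 and 140.3 CPM in WT mice. Mouse 2 was the low one in both groups, and the log2 fold change was 0.12 ± 0.26 (SE; 95% interval -0.47 to 0.72; edgeR adjusted p = 0.952).

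The 2 kinases gave the smallest differences of the 10 genes. Gsk3b (chromosome 16, 38089001 to 38246084), the kinase that marks β-catenin for degradation, had 74.5, 56.1 and 63.4 CPM in mutant mice, against 53.0, 69.1 and 60.9 CPM in WT mice. The groups overlapped, and the log2 fold change was 0.08 ± 0.20 (SE; 95% interval -0.38 to 0.55; edgeR adjusted p = 0.958). Csnk1a1 (chromosome 18, 61554236 to 61590320), which encodes the priming kinase casein kinase 1α, had 334, 272 and 288 CPM in mutant mice, against 296, 281 and 296 CPM in WT mice. The WT values lay inside the range of the mutant values. The log2 fold change was 0.03 ± 0.17 (SE; edgeR adjusted p = 0.981), and its 95% interval on the linear scale, 0.777-fold to 1.35-fold, leaves out larger changes in either direction. The sign of so small a difference turned with the scaling: it was -0.01 with upper-quartile scaling and -0.05 on log2(FPKM + 1).

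Lrp6 (chromosome 6, 134446476 to 134566913) encodes the co-receptor that takes up the Wnt signal together with Frizzled proteins. Its level was 45.0, 18.5 and 51.8 CPM in mutant mice, against 54.3, 33.7 and 48.0 CPM in WT mice. Mouse 2 was again the lowest in both groups, and the groups overlapped. The log2 fold change was -0.24 ± 0.38 (SE; 95% interval -1.12 to 0.64; edgeR adjusted p = 0.937), and it was 0.09 without mutant mouse 2. Its paralog Lrp5 had 22.9, 15.6 and 26.7 CPM in mutant mice, against 17.7, 15.1 and 16.5 CPM in WT mice, with a log2 fold change of 0.40 ± 0.27 (SE; edgeR adjusted p = 0.868).

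Lef1 (chromosome 3, 131110297 to 131224357), the TCF/LEF factor known from early B and T cell development, differed most among the 10 genes and also varied most between mice. Its counts were 384, 3 and 35 in mutant mice 1, 2 and 3, against 688, 989 and 1780 in WT mice 1, 2 and 3. These correspond to 20.7, 0.194 and 1.94 CPM in mutant mice, against 33.4, 64.3 and 86.6 CPM in WT mice. All mutant mice lay below all WT mice, and mutant mouse 1 lay between the other mutant mice and the WT mice. The means were 7.60 ± 11.4 CPM in mutant mice and 61.4 ± 26.7 CPM in WT mice (SD, 3 mice each). The log2 fold change was -3.01 ± 1.17 (SE; 95% interval -5.71 to -0.30; edgeR adjusted p = 0.709). Without mutant mouse 1 it was -5.81 (edgeR adjusted p = 0.119), and with limma-voom on all mice it was -4.61 (adjusted p = 0.444). In GENCODE M21, exons of the predicted gene Gm43352, on the opposite strand, cover 13.7% of the 8788 exon bases of Lef1. The deposited length of Lef1 is 3687 bases.

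The B cell markers, taken as a sum, were low in the mutant mice with the least Lef1. The summed level of the 13 B cell markers was 668, 101 and 82.3 CPM in mutant mice, against 686, 1060 and 1185 CPM in WT mice. Mutant mouse 1 was thus close to WT mouse 1 in this sum, and the other mutant mice were far below every WT mouse. In mutant mice 2 and 3 most of the sum was Cd79b. That gene had 105, 87.4 and 58.8 CPM in mutant mice, against 105, 146 and 142 CPM in WT mice. The log2 fold change was negative for 13 of 13 markers (median -1.96, against 0.0022 over all tested genes), and 0 passed the adjusted threshold in edgeR. Of the 13, 5 were lower without overlap, against 7.67% of all tested genes. Not every marker followed Lef1 from mouse to mouse: Ms4a1 had 0.915, 0.903 and 1.05 CPM in mutant mice, against 5.14, 1.24 and 1.56 CPM in WT mice. Pax5, which fixes B cell identity, had few counts, with 26, 0 and 1 in mutant mice, against 20, 18 and 75 in WT mice. Ebf1 had 40.9, 0.0645 and 0.665 CPM in mutant mice, against 33.9, 36.6 and 58.9 CPM in WT mice. In Pax5 and in Ebf1 the groups overlapped through mutant mouse 1. Macrophage markers were also lower in mutant mice, with sums over 9 genes of 40.2, 18.3 and 77.8 CPM in mutant mice, against 137, 105 and 88.2 CPM in WT mice. Of these, 8 were tested, all with negative log2 fold changes and a median of -1.84, and 5 were lower without overlap. The part of B cell or macrophage transcripts in the Lef1 result was not tested, and in bulk libraries fewer cells of a type and less RNA per cell cannot be told apart.

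**Figure D3:**
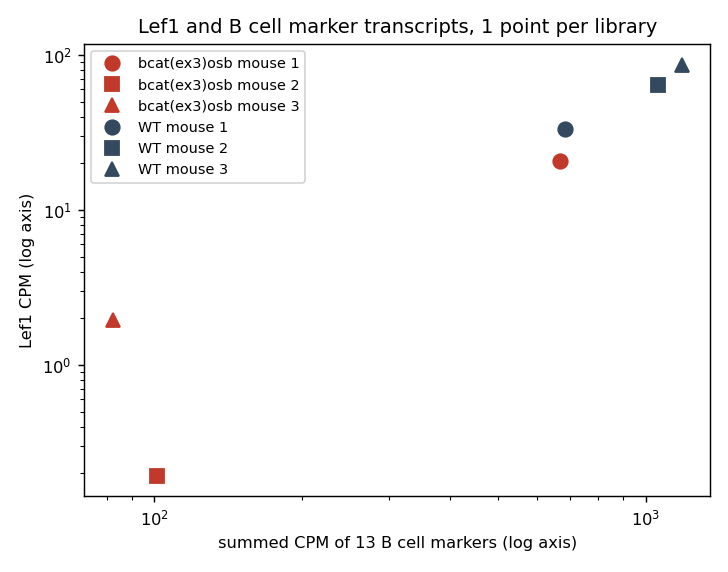
Lef1 level (vertical axis, CPM, log scale) against the summed level of 13 B cell markers (horizontal axis, CPM, log scale), with 1 point per library, mutant mice in red and WT mice in dark blue. Mutant mice 2 and 3 lie at the lower left, and mutant mouse 1, with 20.7 CPM of Lef1 and a sum of 668 CPM, lies beside WT mouse 1, with 33.4 CPM and 686 CPM.

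Among all genes with a mean of at least 10 CPM (9476 genes), Cd79a and Vpreb3, 2 of the 13 B cell markers, were among the 3 whose deviations over the 6 mice were most like those of Lef1. Their root mean square differences from Lef1 were 0.58 and 0.63 log2 units. Cd79a, whose product carries the signal of the B cell receptor, had 109, 1.23 and 3.66 CPM in mutant mice, against 100.2, 170.4 and 187 CPM in WT mice. The order of the mutant mice was that of Lef1, and mutant mouse 1 lay above WT mouse 1, so the groups overlapped. Cd79a was picked here for its likeness to Lef1 over these same 6 mice, so that order is not a separate result. For Ctnnb1 the closest genes were Klhl12, Ints4 and Agbl5, at 0.05, 0.06 and 0.06 log2 units, and for Tcf7 they were Rab44, Ccrn4l and Socs3, at 0.45, 0.59 and 0.60 log2 units. Socs3, the feedback inhibitor of cytokine receptors, had 54.6, 35.4 and 56.1 CPM in mutant mice, against 21.6, 14.1 and 36.2 CPM in WT mice. It was likewise picked for its likeness to Tcf7 over these mice.

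Tcf7 (chromosome 11, 52246527 to 52283383), which encodes TCF-1, a factor of T cell and innate lymphoid development, had 19.1, 9.81 and 19.2 CPM in mutant mice, against 2.91, 5.72 and 18.5 CPM in WT mice. WT mouse 3 lay within the mutant range, so the groups overlapped. The log2 fold change was 0.82 ± 0.64 (SE; 95% interval -0.65 to 2.30; edgeR adjusted p = 0.878). It ran from 0.40 without WT mouse 1 to 1.90 without WT mouse 3. The T cell receptor components Cd3d, Cd3e and Cd3g were at or below 0.887 CPM in mutant mice and 1.02 CPM in WT mice. The summed level of the 14 T cell markers, most of it Lck and Lat, was 186, 128 and 123 CPM in mutant mice, against 194, 194 and 214 CPM in WT mice. The 11 markers of NK and innate lymphoid cells summed to 35.7, 29.4 and 54.2 CPM in mutant mice, against 31.4, 25.4 and 30.8 CPM in WT mice. Of these, 7 were tested, 4 with positive and 3 with negative log2 fold changes. Without overlap, 2 were higher and 1 was lower, against 6.89% higher and 7.67% lower of all tested genes. The part of such cells in the Tcf7 values was not tested.

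Tcf7l2 (chromosome 19, 55741797 to 55933659), which encodes TCF-4, the main partner of β-catenin in the intestine, had 34.1, 25.4 and 28.8 CPM in mutant mice, against 44.5, 42.1 and 39.3 CPM in WT mice. All mutant mice lay below all WT mice, and both groups were compact. The means were 29.4 ± 4.42 CPM in mutant mice and 42.0 ± 2.59 CPM in WT mice (SD, 3 mice each). This gave a log2 fold change of -0.51 ± 0.21 (SE; 95% interval -0.98 to -0.04; edgeR adjusted p = 0.724). Leaving out any 1 mouse gave values between -0.63 and -0.41. Tcf7l1, the fourth gene of the family and often a repressor, had 5.22, 6.64 and 5.32 CPM in mutant mice, against 6.35, 6.57 and 7.49 CPM in WT mice, with a log2 fold change of -0.25 ± 0.33 (SE; edgeR adjusted p = 0.920).

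The make-up of the TCF/LEF family differed between the mice when compared on the FPKM scale. The 4 genes summed to 23.4, 11.2 and 17.8 FPKM in mutant mice, against 23.6, 31.5 and 44.4 FPKM in WT mice. On these values the groups did not overlap, although mutant mouse 1 and WT mouse 1 were nearly equal. The deposited FPKM uses library totals without TMM scaling. The TMM factors were 0.995 for mutant mouse 1 and 1.06 for WT mouse 1, so the separation of the sums depends on the scaling. Lef1 made up 23.9%, 0.448% and 3.03% of the sum in mutant mice, against 40.4%, 55.2% and 54.5% in WT mice. Tcf7 made up 36.3%, 35.4% and 49.5% in mutant mice, against 5.80%, 8.10% and 19.2% in WT mice, which did not overlap either. Tcf7l2 made up 31.9%, 44.9% and 36.5% in mutant mice, against 43.6%, 29.3% and 20.03% in WT mice. Tcf7 thus had the largest share in mutant mice 1 and 3 and Tcf7l2 in mutant mouse 2, while Lef1 had the largest share in WT mice 2 and 3 and Tcf7l2 in WT mouse 1. Shares of a sum are bound to each other, so a low Lef1 raises the share of the other genes without any difference in their level.

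**Figure D4:**
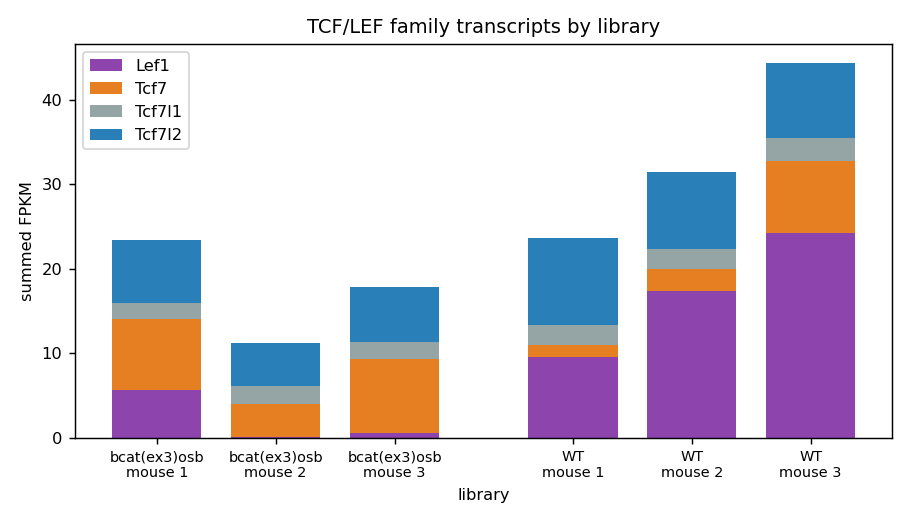
Summed FPKM of the 4 TCF/LEF genes (vertical axis) in each library, with mutant mice on the left and WT mice on the right. Coloured segments are the genes. The Lef1 segment is 0.05 to 5.58 FPKM tall in mutant mice and 9.55 to 24.2 FPKM in WT mice.

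Nkd1 (chromosome 8, 88521342 to 88594887), which encodes a Dishevelled-binding inhibitor that Wnt signalling induces in many tissues, was the 1 gene of the 10 with all mutant mice above all WT mice. It had 4.04, 3.55 and 3.66 CPM in mutant mice, against 1.503, 1.69 and 2.04 CPM in WT mice. Both groups were compact, at 3.75 ± 0.257 CPM in mutant mice and 1.75 ± 0.274 CPM in WT mice (SD, 3 mice each), but the counts were few, at 75, 55 and 66 in mutant mice and 31, 26 and 42 in WT mice. Its log2 fold change was 1.10 ± 0.45 (SE; 95% interval 0.06 to 2.14; edgeR adjusted p = 0.734). Leaving out any 1 mouse gave values between 1.0 and 1.23. On log2(FPKM + 1), which understates differences of genes this low, the value was 0.37 (limma adjusted p = 0.595). Axin2, the other feedback inhibitor commonly read as a sign of β-catenin activity, was too low to be tested, with 12, 7 and 2 counts in mutant mice, against 3, 0 and 7 counts in WT mice. Nkd2, the paralog of Nkd1, did not pass the filter on low counts either. It had 5, 0 and 0 counts in mutant mice, against 42, 3 and 77 counts in WT mice, and the groups overlapped.

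The rank of mutant mouse 2 among the mutant mice was the same in all 10 genes, and the cause was not tested. All 10 genes were lowest among the mutant mice in mouse 2, against 43.7% of all tested genes and 64.7% of those at least 2810 bases long, the median length. In WT mouse 2, 4 of the 10 were lowest, against 44.9% of all tested genes. Without mutant mouse 2, 5 of the 10 genes did not overlap between the groups, against 23.4% of all tested genes, and Lef1, Tcf7l2 and Nkd1 had log2 fold changes of -2.44, -0.41 and 1.14. With the length trend of each library removed, the log2 fold changes were -3.06 for Lef1, -0.45 for Tcf7l2 and 1.17 for Nkd1, and 0 of the 10 passed the adjusted threshold in edgeR. When only the 4 mice with few Y-linked counts were used (mutant mouse 3 with 12 and the WT mice with 8 to 13), they were -4.996, -0.56 and 1.05. There 6 of the 10 did not overlap, against 46.8% of all tested genes.

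Upstream of the 10 genes, Wnt ligands were scarce in these libraries. Of 19 Wnt genes, 7 had no count in any mouse, 17 stayed under 1 CPM in every mouse, and only Wnt5b and Wnt6 passed the filter on low counts. Wnt5b, a ligand of mostly β-catenin-independent signalling, had 2.37, 1.42 and 1.55 CPM in mutant mice, against 3.01, 4.94 and 2.63 CPM in WT mice, without overlap and with a log2 fold change of -0.98 ± 0.52 (SE; edgeR adjusted p = 0.803). Wls, the carrier that brings Wnt proteins to the cell surface, was at 89.5 ± 1.27 CPM in mutant mice and 95.9 ± 12.9 CPM in WT mice (SD, 3 mice each). Of the 25 genes for ligands and secretion, 3 were tested, all with negative log2 fold changes. Of 21 receptor genes 16 were tested, 7 with positive and 9 with negative values and a median of -0.15. Fzd6, a Frizzled receptor, had 17.0, 18.5 and 17.5 CPM in mutant mice, against 38.8, 16.7 and 25.6 CPM in WT mice, and the groups overlapped. Of 15 secreted antagonists 3 were tested, and in none of them were the groups apart.

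The lists of cytoplasmic pathway genes gave values of both signs, and some of the 10 genes belong to them. Of 13 genes for Dishevelled and its modulators 10 were tested, Nkd1 among them, with 4 positive and 6 negative values and a median of -0.02. Without overlap, 2 of these (Nkd1 and Csnk1e) were higher and 0 lower, against 6.89% higher and 7.67% lower of all tested genes. The Dishevelled genes Dvl1, Dvl2 and Dvl3 had log2 fold changes of -0.21, 0.04 and -0.01, the signs of the last 2 turning with the scaling. Csnk1e, a casein kinase that acts on Dishevelled, had 90.8, 142 and 94.3 CPM in mutant mice, against 70.8, 90.3 and 74.1 CPM in WT mice, without overlap and with a log2 fold change of 0.48 ± 0.23 (SE; edgeR adjusted p = 0.789). Of 20 genes for the destruction complex and β-catenin turnover 19 were tested, with Ctnnb1, Apc, Axin1, Gsk3b and Csnk1a1 among them, and gave 10 positive and 9 negative values and a median of 0.02. In that list 1 gene was higher without overlap and 2 were lower, which is near the 14.6% of all tested genes. The lower genes included Siah1a, a ubiquitin ligase that can target β-catenin, at 39.4 ± 3.31 CPM in mutant mice and 45.9 ± 2.37 CPM in WT mice (SD, 3 mice each). Gsk3a, the paralog of Gsk3b, had a log2 fold change of 0.12 ± 0.20 (SE). Of 10 cadherin and catenin genes of cell junctions 5 were tested, 3 with positive and 2 with negative values, and in 0 of them were the groups apart.

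On the nuclear side, 20 of 21 genes for TCF/LEF factors and their cofactors were tested, 12 with positive and 8 with negative log2 fold changes and a median of 0.05. At an unadjusted p under 0.05, edgeR gave 0 of these higher and 2 lower, which were Lef1 and Tcf7l2, against 3.43% higher and 3.13% lower of all tested genes. Without overlap, 3 of the 20 were higher and 3 lower, against 6.89% higher and 7.67% lower of all tested genes. Pygo2, which helps β-catenin read chromatin, had 108, 95.9 and 110 CPM in mutant mice, against 91.2, 72.6 and 93.4 CPM in WT mice, without overlap and with a log2 fold change of 0.29 ± 0.19 (SE; edgeR adjusted p = 0.860). Tle6, a relative of the Groucho co-repressors, had 19.1, 33.2 and 31.8 CPM in mutant mice, against 20.2, 18.2 and 15.8 CPM in WT mice, and the groups overlapped through mutant mouse 1.

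Genes often listed as Wnt targets had values of both signs. Of 27 such genes, among them Lef1, Tcf7 and Nkd1 themselves, 19 were tested, 12 with positive and 7 with negative log2 fold changes. The median was 0.32 in edgeR, against 0.0022 over all tested genes, but it was 0.02 in limma-voom and -0.03 on log2(FPKM + 0.1). At an unadjusted p under 0.05, edgeR gave 4 higher (Id2, Myc, Nkd1 and Ccnd1) and 2 lower (Tnfrsf19 and Lef1), against 3.43% higher and 3.13% lower of all tested genes, and none passed the adjusted threshold. Id2, an inhibitor of helix-loop-helix factors, had 54.1, 60.3 and 106 CPM in mutant mice, against 14.9, 20.7 and 18.2 CPM in WT mice, with a log2 fold change of 2.04 ± 0.31 (SE; edgeR adjusted p = 0.292). Myc, the growth regulator, had 1012, 1011 and 1080 CPM in mutant mice, against 639, 570.1 and 598 CPM in WT mice, with a log2 fold change of 0.78 ± 0.17 (SE; edgeR adjusted p = 0.333). Tnfrsf19, a receptor of the tumour necrosis factor family, had 0.754, 0 and 0 CPM in mutant mice, against 4.51, 7.35 and 8.17 CPM in WT mice (edgeR adjusted p = 0.485). In all 3 the groups did not overlap. Over the list, 4 genes were higher and 3 lower without overlap, against 6.89% higher and 7.67% lower of all tested genes. Id2, Myc and Tnfrsf19 passed the adjusted threshold with DESeq2, where 0.798% of all tested genes passed as higher and 0.537% as lower. These 3 were named for their small p. Lgr5, a stem cell marker of the intestine, had 0.969, 0 and 0.887 CPM in mutant mice, against 1.89, 3.45 and 2.14 CPM in WT mice, and it too did not overlap (edgeR adjusted p = 0.800).

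**Figure D5:**
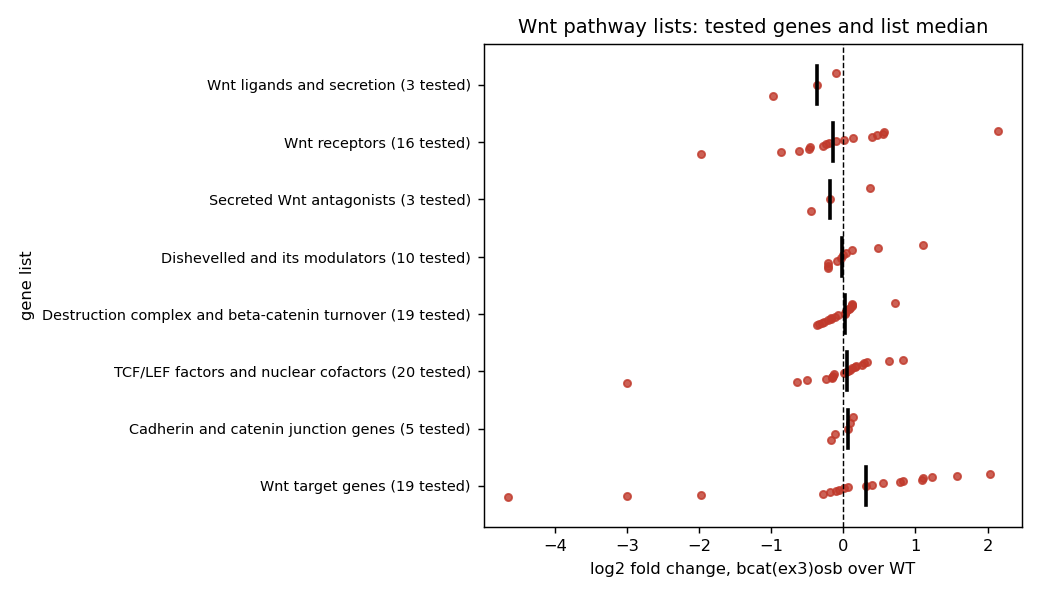
Log2 fold change, mutant over WT, of the tested genes of 8 Wnt pathway lists (horizontal axis, log2 units), with the number tested beside each name. Points are genes and black bars are list medians. The medians lie between -0.37 for the ligands and 0.32 for the target genes, and the 2 lowest points of the target genes are Tnfrsf19 at -4.65 and Lef1 at -3.01.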

How the data were processed

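The labels' protocols name an AllPrep RNA extraction and stranded total RNA libraries. Build mm10, featureCounts 1.5.0-p3, STAR 2.5.2b and bcl2fastq 2.17 are named in the submitters' processing notes. For every library the authors deposited raw counts per gene and a second table with gene length and FPKM. Recomputed from the counts, gene lengths and library totals, the deposited FPKM differed by at most 0.005. The sources used here do not state the strand setting, the annotation or how reads with several positions were counted.

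Differences in counts were assessed in R 4.3.3 with edgeR 4.0.16 (TMM scaling, filterByExpr with minimum count 10 and minimum total 15, quasi-likelihood F test, genotype as the only term, two-sided, Benjamini-Hochberg over 12653 genes, threshold 0.05). SE values were derived from the F statistic. DESeq2 1.42.0, limma 3.58.1 and other settings were alternatives, and the procedure was tested on simulated data. Closest patterns used log2 CPM with a prior count of 1. The exon sequence and the exon overlaps are from GENCODE M21, and gene positions are from RefSeq on GRCm38.p6. The members and lists were chosen with earlier results of these data known. Named from each list were up to 4 tested genes with the smallest p, plus Axin2, Lrp5, Tcf7l1, Gsk3a and Dvl1 to Dvl3, and some of these are not described singly. Pax5, Ebf1, Kit, Ly6a, Nkd2 and other single genes were chosen after their values were seen. A gene that the rule on closest patterns names is not reported here.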

Additional observations from a re-analysis of the deposited data

How the results depend on the processing

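Under 18 alternatives, the log2 fold changes of Ctnnb1, Apc, Lef1, Tcf7, Tcf7l2 and Nkd1 kept their direction, and 0 of the 10 genes passed the adjusted threshold in any. Lef1 ran from -5.81 to -2.41 and Ctnnb1 from -0.56 to -0.17. Genes called over all genes numbered 0 in edgeR, against 101 higher and 68 lower with DESeq2, 1 higher with the length trend removed, and 0 to 4 higher and 0 to 13 lower when 1 mouse was left out. With the mouse number as a replicate block, edgeR called 5 higher and 0 lower. The correlations of same-numbered mice were 0.11, 0.344 and 0.0567, and mutant mouse 1 correlated best with WT mouse 3 (0.131). Mouse 2 of each group was the lowest for long transcripts, so these correlations cannot tell whether the numbers pair the mice. Genes of the 10 without overlap numbered 3 to 8 when mice were left out, 5 without mutant mouse 2 and 8 without mouse 2 of both groups, which was chosen after seeing the data and where 45.1% of all tested genes did not overlap. They numbered 6 with only the mice with few Y-linked counts.

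Signs turned for small or few-count differences, and the cause was not tested. Csnk1a1 was -0.0074 with upper-quartile scaling, -0.052 on log2(FPKM + 1), -0.052 on log2(FPKM + 0.1) and -0.035 in the mice with few Y-linked counts. In those mice Lrp6 was 0.18, Csnk1g3 0.014, Dvl1 0.0082, Ctnnd2 -0.51, Gsk3a -0.23 and Dvl3 0.45. Fzd1 was -0.095 with limma-voom. Dvl2 was -3.63e-05 with upper-quartile scaling, and -0.032 and -0.033 on the FPKM scales. Dvl3 was 0.00040 with RLE scaling, 0.00059 with DESeq2 and 0.014 with the length trend removed. With mice left out, the range was -0.040 to 0.32 for Axin1, -0.033 to 0.27 for Gsk3b, -0.059 to 0.094 for Csnk1a1, -0.51 to 0.093 for Lrp6, -0.20 to 0.00012 for Wls, -0.998 to 2.91 for Fzd1, -0.047 to 0.68 for Kremen1, -1.396 to 0.21 for Dkk3, -1.005 to 0.34 for Apcdd1, -0.20 to 0.013 for Ctnna1, -0.078 to 0.22 for Ctnnd1, -0.17 to 0.36 for Ctnnd2, -0.017 to 0.26 for Gsk3a, -0.081 to 0.11 for Dvl2 and -0.33 to 0.36 for Dvl3. Depth limits Nkd1, Axin2 and Lef1 in mutant mouse 2, where 3 counts equal 0.194 CPM. Intervals are for the log2 fold change and rest on the spread between 3 mice a group.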
